A study of Chlamydomonas reinhardtii with 8 samples.

Results

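The mating-type region of Chlamydomonas reinhardtii was taken as the rows of the count table with IDs from Cre06.g250650 to Cre06.g255450, which are 84 of 17693 rows, chosen by their numbers and not by any measured value. The 2 members with a name here are FUS1 (Cre06.g252750) and MAT3 (Cre06.g255450). RNA of vegetative cells grown in light in TAP, an acetate medium, was sequenced in 8 libraries of 4 groups, with 2 biological replicates per group by the sample titles. The groups were a DNMT1 knockout in mt+ (dnmt1 mt+) and wild type in mt+ (WT mt+), both titled CC-5155 strains, and a DNMT1 knockout in mt- (dnmt1 mt-) and wild type in mt- (WT mt-), both titled CC-5325 strains. Mating type and strain therefore cannot be told apart, and neither can a level of RNA and the way reads of one strain map to the gene models used. How the knockouts were made, and from how many clones, is not given in the sources used here. The series title asks about cytosine methylation and recombination at the sex-determining region; these libraries measure transcripts.

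This green alga is haploid, and its mating types, plus and minus, are set by alternative forms of 1 region of chromosome 6. Within that region a rearranged stretch recombines little between the mating types, and it is flanked by stretches with mostly the same genes in both. A few genes are present in only 1 mating type. FUS1 is one of those of the plus type and encodes a surface glycoprotein that plus gametes need for fusion. MAT3 is linked to the region in both types and encodes a protein related to the retinoblastoma tumour suppressor that controls the size at which cells divide. DNMT1 is a DNA cytosine methyltransferase, an enzyme that adds methyl groups to cytosine. The other members are given by their IDs, since no file used here names them.

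The 8 libraries held 12204374 to 21115955 counts, of which the 84 rows took 0.335% to 0.371%. Differences between replicates had SDs on the log2 scale of 0.32, 0.47, 0.34 and 0.32 over all genes tested in dnmt1 mt+, WT mt+, dnmt1 mt- and WT mt-, and of 0.28, 0.31, 0.27 and 0.22 over the tested members. FUS1 had counts in all 4 mt+ libraries and none in the 4 mt- libraries, so it went with the mating type labels. The DNMT1 locus (Cre10.g461750, an assignment from standard nomenclature and not from a file) had 268 and 197 counts in dnmt1 mt+ against 332 and 480 in WT mt+, and 1321 and 1337 in dnmt1 mt- against 648 and 363 in WT mt-. Its log2 fold change was -0.95 ± 0.13 in mt+ (SE; adjusted p = 7.78e-05) and 1.71 ± 0.11 in mt- (adjusted p = 5.74e-08), so in mt- it was higher in the libraries labelled dnmt1. Counts per gene do not show whether a transcript is whole, so they do not check the knockout label. Here dnmt1 is the label of a library, and each direction below is that of the libraries so labelled.

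Of the 84 members, 70 had enough counts to be tested. Their mean levels over the 8 libraries ran from 0.582 to 505 CPM with a median of 30.1 CPM; CPM, the counts scaled to a common library size, is not corrected for gene length. Of the 14 others, 2 had no count in any library (Cre06.g253800 and Cre06.g254052), and 12 had 1 to 32 counts summed over all 8. Most of the untested members lay close together: 8 of the 12 members from Cre06.g253750 to Cre06.g254250 were among them. Of the 70 tested members, 63 had a mean of at least 0.639 CPM, the level of the filter, over the 4 libraries of each mating type. Cre06.g252743, FUS1, Cre06.g252892, Cre06.g253051 and Cre06.g254224 reached it in mt+ alone, and Cre06.g251550 and Cre06.g252050 in mt- alone. Those 7 were tested because of the mating type in which they were higher, so their calls between mating types support nothing, and the main counts of calls below are also given for the 63.

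The sharpest contrast between the mating types lay in a short run of members around FUS1, from Cre06.g252743 to Cre06.g253051. Of its 8 members, 6 had their counts only or almost only in mt+ libraries. Cre06.g252743 had 8.13 and 8.39 CPM in dnmt1 mt+ and 11.8 and 11.3 CPM in WT mt+, and 0 counts in each of the 4 mt- libraries. Against a floor of 3 counts per library this is at least 41.8-fold higher in mt+ than in mt- in dnmt1 and at least 69.0-fold higher in WT. It was the 1 row of the mating-type region with at least 10 counts in every library of one mating type and none in the other; over all rows, 1 such row had its counts in mt+ and 3 in mt-.

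FUS1 itself was low in these vegetative cells. It had 18 and 28 counts in dnmt1 mt+ (1.08 and 1.88 CPM) and 8 and 18 counts in WT mt+ (0.680 and 1.06 CPM), and no count in mt-. It was at least 7.48-fold higher in mt+ in dnmt1 and at least 5.19-fold higher in WT. With DESeq2, with counts halved and with a mean of at least 10 CPM it had no test. Between dnmt1 and WT in mt+ the libraries did not overlap, but with these few counts the log2 fold change of 0.71 ± 0.55 did not pass the test (adjusted p = 0.419).

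The next members of the run with mt+ counts were Cre06.g252871, Cre06.g252892, Cre06.g253000 and Cre06.g253051. Cre06.g252892 had 8.61 and 7.79 CPM in dnmt1 mt+ against 0.127 and 0.136 CPM in dnmt1 mt-, and 6.80 and 10.7 CPM in WT mt+ against 0.177 and 0.270 CPM in WT mt-. The mt- libraries held only 2 and 2 counts in dnmt1 and 4 and 4 in WT, so the ratio is given with an interval for counting error alone: 62.5-fold higher in mt+ in dnmt1 (95% interval 24.1 to 231) and 42.5-fold in WT (21.2 to 99.4). This and the other such intervals take each count as independent. Few low counts were odd, which arises where both mates of a read pair are counted, and the intervals are then too narrow. Cre06.g253051 showed the same order, with 15.1 and 14.6 CPM in dnmt1 mt+ against 0.127 and 0.272 CPM in dnmt1 mt-, and 16.6 and 12.3 CPM in WT mt+ against 0.0887 and 0.270 CPM in WT mt-. Its ratio was 75.2-fold in dnmt1 (34.3 to 206) and 87.9-fold in WT (40.0 to 241).

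Cre06.g252871 and Cre06.g253000 had too few counts for a test. Cre06.g252871 had 9 and 12 counts in dnmt1 mt+ and 5 and 6 in WT mt+, and Cre06.g253000 had 8 and 6 in dnmt1 mt+ and 10 and 4 in WT mt+, with none in mt- for either. Between these members lay Cre06.g252800 and Cre06.g252850, which had counts in every library; Cre06.g252850 was higher in mt+ in dnmt1 (log2 fold change 0.34 ± 0.10, adjusted p = 0.0178) and was not called in WT (0.20 ± 0.10, adjusted p = 0.140), and Cre06.g252800 was called in neither. Unlike FUS1 and Cre06.g252743, these 4 were chosen with their values already seen.

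Outside the run, Cre06.g254224 was also mainly an mt+ transcript, with 2.45 and 2.62 CPM in dnmt1 mt+ against 0 and 0.272 CPM in dnmt1 mt-, and 1.61 and 1.06 CPM in WT mt+ against 0.0887 and 0.270 CPM in WT mt-. Its counts in mt- were 0 and 4 in dnmt1 and 2 and 4 in WT, and the ratio was 19.2-fold in dnmt1 (7.23 to 72.3) and 8.03-fold in WT (3.36 to 23.3). The WT call was lost without WT mt- replicate 1 (adjusted p = 0.140, against 0.00976 with it). In all, 8 of 84 members (9.52%) had counts only in mt+ libraries, against 195 of 17693 rows (1.10%) of the whole table, and no member had counts only in mt- libraries, against 248 rows (1.40%). Members were chosen by ID number and all 84 matched the v5.5 annotation, so a gene without such a number could not be among them. How far this choice of rows shaped the lean to mt+ was not tested. Of the 8 members with counts only in mt+, Cre06.g253750, Cre06.g253759 and Cre06.g253902 rested on 5 counts or fewer in all. Another, Cre06.g252250, also lay outside the run and had too few counts for a test, with 14 summed over dnmt1 mt+ and 7 over WT mt+.

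**Figure D1:**
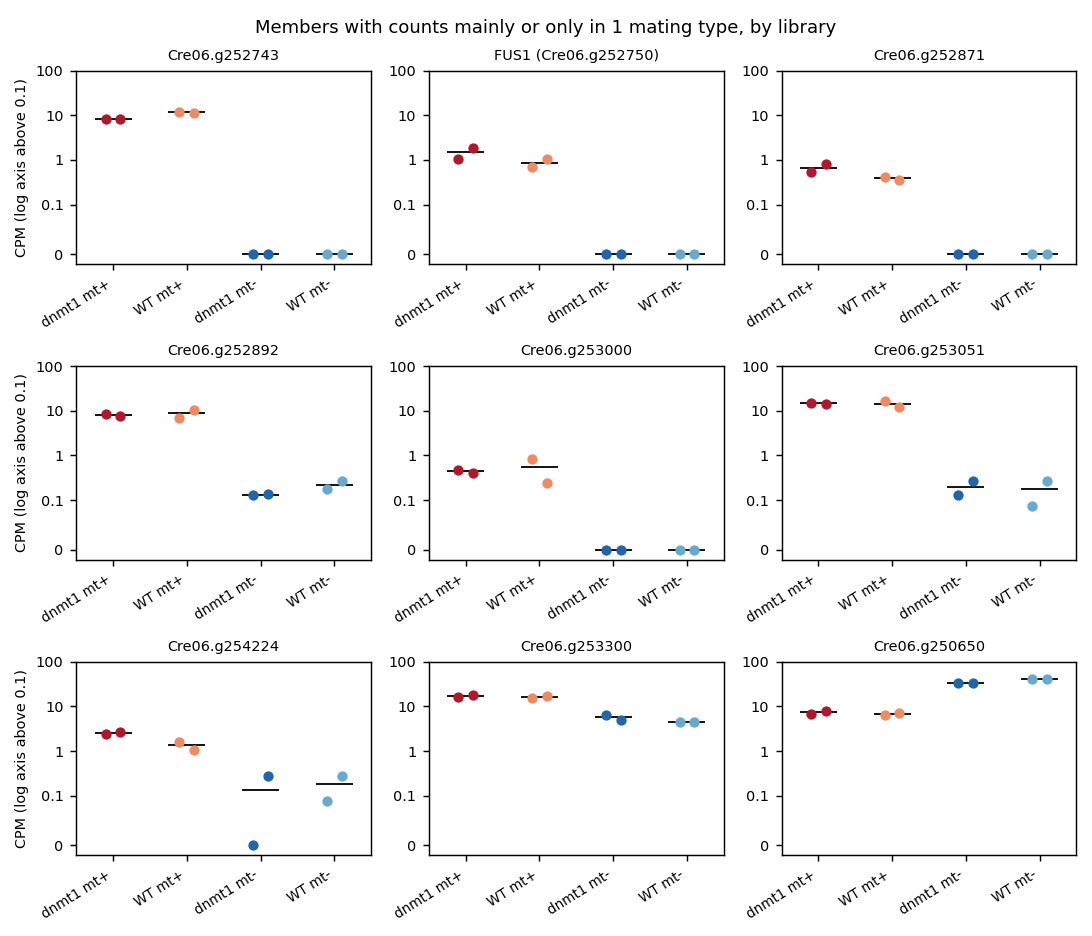
Level in CPM (log axis above 0.1, linear below) of 9 members in each library, in the order dnmt1 mt+, WT mt+, dnmt1 mt-, WT mt-; points are libraries and bars are group means. Cre06.g252743, FUS1, Cre06.g252871 and Cre06.g253000 lie at 0 in all 4 mt- libraries, and Cre06.g250650 is the panel in which the mt- libraries lie above the mt+ libraries.

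Members with RNA in both mating types also differed between them. Cre06.g253300, a few rows above the FUS1 run, had 16.1 and 18.3 CPM in dnmt1 mt+ against 6.42 and 4.97 CPM in dnmt1 mt-, and 15.6 and 16.7 CPM in WT mt+ against 4.39 and 4.45 CPM in WT mt-. The mt+ libraries were all above the mt- libraries, with a log2 fold change of 1.59 ± 0.17 in dnmt1 (adjusted p = 1.52e-05) and 1.87 ± 0.18 in WT (adjusted p = 5.75e-06). Cre06.g254400 had 182 and 167 CPM in dnmt1 mt+ against 91.9 and 100.4 CPM in dnmt1 mt-, and 236 and 182 CPM in WT mt+ against 93.8 and 92.0 CPM in WT mt-; it was higher in mt+ by 0.86 ± 0.11 in dnmt1 (adjusted p = 5.49e-05) and 1.17 ± 0.11 in WT (adjusted p = 5.30e-06).

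Among called members with a mean of at least 1 CPM, the one farthest in the other direction was the first of the region, Cre06.g250650. It had 6.75 and 7.99 CPM in dnmt1 mt+ against 32.9 and 34.0 CPM in dnmt1 mt-, and 6.29 and 7.20 CPM in WT mt+ against 41.7 and 41.0 CPM in WT mt-, so the 4 mt- libraries stood well above the 4 mt+ libraries. The log2 fold change was -2.18 ± 0.13 in dnmt1 (adjusted p = 5.68e-08) and -2.61 ± 0.13 in WT (adjusted p = 5.69e-09). Cre06.g251500 was also lower in mt+ in both genotypes, with 41.2 and 40.4 CPM in dnmt1 mt+ against 58.2 and 65.5 CPM in dnmt1 mt-, and 33.8 and 41.5 CPM in WT mt+ against 80.2 and 82.6 CPM in WT mt-. Its log2 fold change was -0.60 ± 0.11 in dnmt1 (adjusted p = 0.000898) and -1.10 ± 0.11 in WT (adjusted p = 6.78e-06). Smaller differences in the same direction were found for Cre06.g251650, at -0.70 ± 0.09 in dnmt1 and -0.50 ± 0.09 in WT (adjusted p = 4.33e-05 and 0.000867), and Cre06.g252000, at -0.65 ± 0.10 and -0.50 ± 0.10 (adjusted p = 0.000221 and 0.00212).

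Some members were called in 1 genotype. In dnmt1, Cre06.g255250 and Cre06.g251900 were lower in mt+, at -0.77 ± 0.18 and -0.74 ± 0.14 (adjusted p = 0.00804 and 0.00205), and Cre06.g251750 was higher, at 1.11 ± 0.13 (adjusted p = 2.95e-05). The call of Cre06.g255250 was lost without dnmt1 mt+ replicate 1 (adjusted p = 0.0764), without replicate 2 of that group (0.0702) and on leaving out replicate 1 of dnmt1 mt- (0.0772). In WT, Cre06.g251250 was lower in mt+, at -0.80 ± 0.14 (adjusted p = 0.00105). Cre06.g252350, Cre06.g254150 and Cre06.g253200 were lower in mt+ in both genotypes, with WT log2 fold changes of -0.72 ± 0.10, -0.61 ± 0.10 and -0.55 ± 0.10 and dnmt1 log2 fold changes of -0.52 ± 0.10, -0.43 ± 0.10 and -0.51 ± 0.10.

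Over the whole region, mt+ against mt- in dnmt1 gave 16 members higher and 25 lower of 70 tested, which is 58.6%, against 22.0% of all 15263 genes tested (10.7% higher, 11.4% lower). In WT it gave 15 higher and 16 lower, 44.3%, against 21.5% of all genes (10.6% higher, 10.9% lower). In each of these calls the libraries of the compared groups did not overlap. This was not counted over all genes, so it is not shown to be particular to the members. The median log2 fold change of the members was -0.13 in dnmt1 and -0.03 in WT, against 0.01 and 0.02 over all genes. Among the 63 members at the filter level in both mating types, 34 (54.0%) were called in dnmt1 and 25 (39.7%) in WT, against 22.5% and 22.0% of all genes that met the same condition. With a minimum of 2-fold, 7 members were higher and 3 lower in dnmt1 (14.3%, against 3.94% of all genes), and 8 higher and 3 lower in WT (15.7%, against 3.08%). Of the higher ones, 5 in each genotype were the members at the filter level in mt+ alone. Among the 63, 2 were higher and 1 lower in dnmt1 (4.76%, against 3.72% of all genes that met the same condition), and 3 higher and 2 lower in WT (7.94%, against 2.83%).

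The rows beside the region were counted in the same way. Of the 29 tested rows next below it, 13 (44.8%) were called in dnmt1 and 11 (37.9%) in WT, and of the 71 tested rows next above it, 21 (29.6%) in dnmt1 and 24 (33.8%) in WT. The other 1081 tested rows of chromosome 6 with older numbers gave 208 (19.2%) in dnmt1 and 242 (22.4%) in WT. The shares of the region, of the rows beside it and of the rest of the chromosome were not tested against each other, and the 2 mating types come from different strains, whose part in these calls was not tested. Leaving out single libraries moved the counts of members and of all genes. In dnmt1, without replicate 1 of dnmt1 mt+ 14 members were higher and 13 lower (37.0%, against 1549 of 15461 genes in all), and without its replicate 2 it was 11 and 11 (30.6%, against 9.36%). Leaving out replicate 1 of dnmt1 mt- gave 11 and 13 (32.9%, against 9.96%), and its replicate 2 gave 10 and 13 (31.5%, against 10.2%). In WT, leaving out replicate 1 of WT mt- gave 11 higher and 8 lower (26.4%, against 8.44%), and its replicate 2 gave 12 and 10 (30.1%, against 9.48%).

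**Figure D2:**
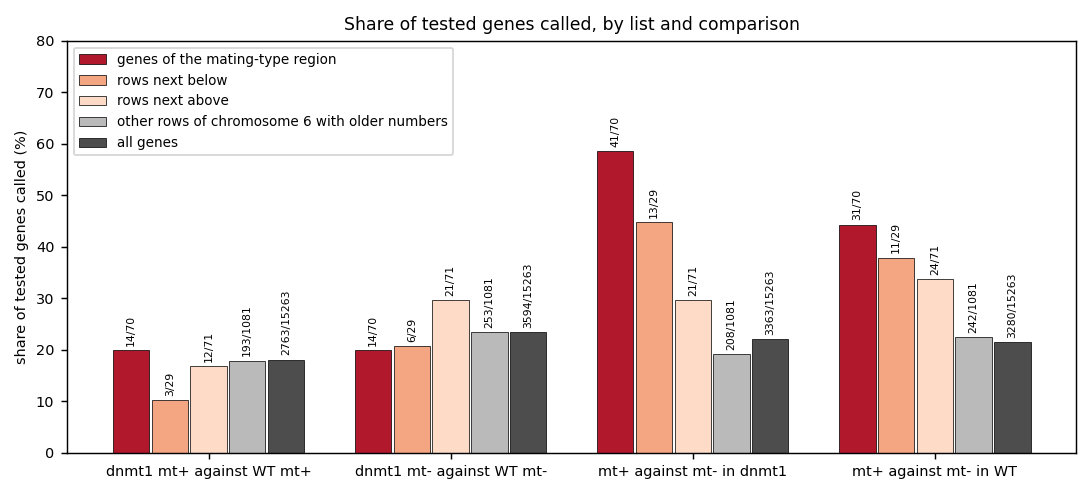
Share of tested genes called (adjusted p under 0.05, either direction) in each comparison, for the mating-type region, the rows next below and above it, the other rows of chromosome 6 with older numbers, and all genes; the numbers over the bars are genes called of genes tested. In the comparisons of mating types the region stood at 58.6% in dnmt1 and 44.3% in WT; in the comparisons of dnmt1 with WT it stood at 20.0% in each mating type.

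The comparison in dnmt1 and the one in WT have no library in common. Of the 70 tested members, 12 were higher in mt+ in both, 12 were lower in both, none was called in opposite directions, 17 were called in dnmt1 and not in WT, 7 in WT and not in dnmt1, and 22 in neither. Over all genes, 2.23% were higher in both, 3.18% lower in both and 2.59% opposite. Calls in dnmt1 and not in WT took 24.3% of the members, against 14.0% of all genes. Those in WT and not in dnmt1 took 7 of the 70 members, against 13.5% of all genes. In neither comparison were 31.4% of the members called, against 64.5% of all genes. Among the 63 members at the filter level in both mating types, 7 (11.1%) were higher in both, 11 (17.5%) lower in both and none opposite, against 331 (2.25%), 471 (3.21%) and 396 of all 14687 genes that met the same condition. Across the 70 members the 2 sets of log2 fold changes had a Pearson correlation of 0.93 and a Spearman correlation of 0.72, and over the 63 members under 8-fold in both they had 0.76 and 0.61; members share libraries and are not independent replicates. The members higher in mt+ in both were Cre06.g250850, Cre06.g251000, Cre06.g252100, Cre06.g252450, Cre06.g252743, FUS1, Cre06.g252892, Cre06.g253051, Cre06.g253300, Cre06.g254224, Cre06.g254400 and Cre06.g255350. Those lower in both were Cre06.g250650, Cre06.g251200, Cre06.g251500, Cre06.g251650, Cre06.g252000, Cre06.g252050, Cre06.g252200, Cre06.g252350, Cre06.g253200, Cre06.g254100, Cre06.g254150 and Cre06.g254850. Called in 1 comparison and not in the other does not show that the genotypes differ. The test of that difference passed for 11 members and is given below for 9 of them. Cre06.g251550, on few counts, and Cre06.g252550 also passed it, each with a lower dnmt1 effect in mt+.

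**Figure D3:**
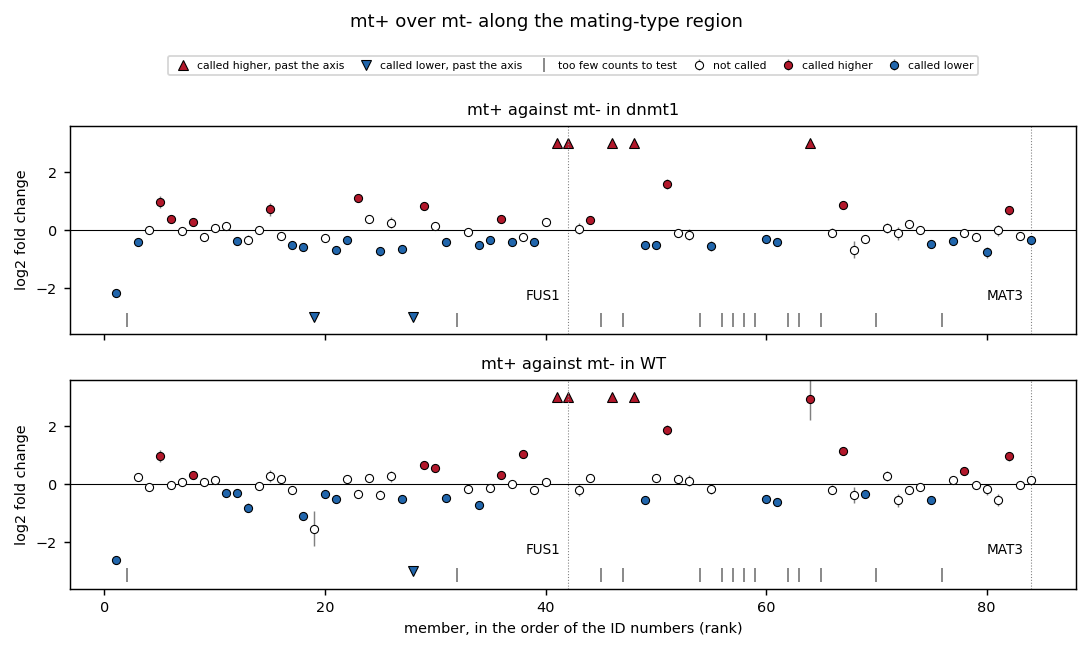
Log2 fold change of mt+ over mt- for each member in dnmt1 (top) and WT (bottom), in the order of the ID numbers; filled points are called, error bars are SE, triangles lie past the axis and ticks at the bottom are members with too few counts to test. Triangles are fitted values for members with few or no counts in one mating type. Called members lie along the whole region, and the high triangles near FUS1 are Cre06.g252743, FUS1, Cre06.g252892 and Cre06.g253051.

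Members also differed between dnmt1 and WT. In mt+, the largest fall among called members with a mean of at least 1 CPM was that of Cre06.g252600, which had 28.0 and 29.1 CPM in dnmt1 mt+ against 74.8 and 71.0 CPM in WT mt+; the mt- libraries had 34.1 and 33.0 CPM in dnmt1 mt- against 37.3 and 33.8 CPM in WT mt-. Both dnmt1 mt+ libraries were far below both WT mt+ libraries and close to the mt- libraries. The log2 fold change was -1.35 ± 0.10 in mt+ (adjusted p = 1.90e-07) and -0.09 ± 0.10 in mt- (adjusted p = 0.566), and the difference of the effects, mt+ minus mt-, was -1.26 ± 0.14 (adjusted p = 2.02e-05). The same values made this member higher in mt+ than in mt- in WT (1.03 ± 0.10, adjusted p = 5.27e-06), a comparison that did not pass in dnmt1 (-0.23 ± 0.10, adjusted p = 0.114). The fall in mt+ and the difference were called in every alternative tried.

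Cre06.g253250 had the same order of groups at a smaller size. It had 25.6 and 24.9 CPM in dnmt1 mt+ against 46.2 and 41.5 CPM in WT mt+, and 34.8 and 37.0 CPM in dnmt1 mt- against 35.8 and 39.6 CPM in WT mt-. It fell in mt+ by 0.79 ± 0.11 on the log2 scale (adjusted p = 9.29e-05), the change in mt- was -0.07 ± 0.10 (adjusted p = 0.686), and the difference was -0.73 ± 0.15 (adjusted p = 0.00405). Other members lower in dnmt1 mt+ were Cre06.g250750, at -0.56 ± 0.12 (adjusted p = 0.00472), and Cre06.g251450, at -0.48 ± 0.13 (adjusted p = 0.0199). Those higher in dnmt1 mt+ were Cre06.g255300, at 0.74 ± 0.21 (adjusted p = 0.0206), Cre06.g250902, at 0.41 ± 0.12 (adjusted p = 0.0266), and Cre06.g251150, at 0.31 ± 0.08 (adjusted p = 0.0155). Without dnmt1 mt+ replicate 1 these 5 calls were lost, with an adjusted p of 0.0532 to 0.147; leaving out replicate 2 of that group lost all but that of Cre06.g250750, with 0.0628 to 0.200. The 2 compared groups alone also lost these calls other than that of Cre06.g250750 (0.0685 to 0.0954). The call of Cre06.g250902 was also lost on leaving out replicate 2 of WT mt+ (0.0706), replicate 1 of WT mt- (0.0538) or replicate 2 of WT mt- (0.0527).

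MAT3 was lower in dnmt1 mt+ and did not pass the test in mt-. It had 58.9 and 60.3 CPM in dnmt1 mt+ against 93.1 and 72.8 CPM in WT mt+, and 79.2 and 71.1 CPM in dnmt1 mt- against 72.9 and 76.8 CPM in WT mt-. The dnmt1 mt+ libraries lay below all 6 others. Its log2 fold change was -0.47 ± 0.11 in mt+ (adjusted p = 0.00668) and 0.01 ± 0.11 in mt- (adjusted p = 0.971), and the difference was -0.48 ± 0.15 (adjusted p = 0.0488). The mt+ call was lost without dnmt1 mt+ replicate 1 (adjusted p = 0.0867) or replicate 2 (0.0588). The difference was lost with DESeq2 (0.0649), with its size factors in edgeR (0.0508), with library size scaling (0.0877), with a mean of at least 10 CPM (0.0650) and without 7 of the 8 libraries in turn, with an adjusted p of 0.0581 to 0.243. Between mating types MAT3 was lower in mt+ in dnmt1 (-0.34 ± 0.11, adjusted p = 0.0385), which was lost without each of 6 libraries, with an adjusted p of 0.0682 to 0.306, and did not pass in WT (0.14 ± 0.11, adjusted p = 0.366); without WT mt+ replicate 2, it was higher in mt+ in WT (log2 fold change 0.32, adjusted p = 0.00232).

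In mt-, Cre06.g251900 rose most in dnmt1. It had 19.8 and 19.2 CPM in dnmt1 mt- against 9.98 and 10.8 CPM in WT mt-, and 12.4 and 11.0 CPM in dnmt1 mt+ against 8.07 and 8.14 CPM in WT mt+. Both dnmt1 groups were above their WT groups, with a log2 fold change of 0.91 ± 0.14 in mt- (adjusted p = 0.000364) and 0.53 ± 0.16 in mt+ (adjusted p = 0.0267). The mt+ call was lost without dnmt1 mt+ replicate 1 (0.180) or replicate 2 (0.0615), with the 2 compared groups alone (0.115) and with DESeq2 (0.0823), each value an adjusted p. It was the 1 member called higher in both mating types. The 1 member called lower in both was Cre06.g254850, with 38.7 and 36.9 CPM in dnmt1 mt- against 54.1 and 50.8 CPM in WT mt- (log2 fold change -0.47 ± 0.12, adjusted p = 0.00896), and 26.4 and 27.6 CPM in dnmt1 mt+ against 30.9 and 40.8 CPM in WT mt+ (-0.42 ± 0.12, adjusted p = 0.0268). Its mt+ call was lost on leaving out either dnmt1 mt+ library, replicate 2 of WT mt+, replicate 1 of dnmt1 mt- or either WT mt- library, with an adjusted p of 0.0530 to 0.228, and with the 2 compared groups alone (0.112) or a mean of at least 10 CPM (0.0507).

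Other members higher in dnmt1 mt- were Cre06.g255100, which had 88.2 and 85.3 CPM in dnmt1 mt- against 60.9 and 64.6 CPM in WT mt- (0.47 ± 0.08, adjusted p = 0.000913), and Cre06.g255350, Cre06.g255050, Cre06.g253350 and Cre06.g251400, with log2 fold changes of 0.63 ± 0.17, 0.37 ± 0.12, 0.36 ± 0.08 and 0.34 ± 0.09 (adjusted p = 0.0127, 0.0370, 0.00429 and 0.0165). Lower ones were Cre06.g251250, Cre06.g251800, Cre06.g251500 and Cre06.g254100, at -0.57 ± 0.14, -0.55 ± 0.14, -0.40 ± 0.10 and -0.30 ± 0.10 (adjusted p = 0.00773, 0.00922, 0.0109 and 0.0455). Leaving out 1 library ended many of these calls. Of the 12 members named in mt-, Cre06.g251750 and Cre06.g254850 included, 8 lost the call on leaving out replicate 1 of dnmt1 mt-, 7 on leaving out its replicate 2, 9 on leaving out replicate 1 of WT mt- and 5 on leaving out its replicate 2. Cre06.g254100 lost it without either dnmt1 mt+ library too. The adjusted p of the lost calls ran from 0.0512 to 0.270. Cre06.g251900 and Cre06.g255100 kept the call without each library in turn. The call of Cre06.g255050 was also lost with library size scaling (0.145) and DESeq2 (0.0881), that of Cre06.g251400 with library size scaling (0.0924) and that of Cre06.g254100 with DESeq2 (0.0663).

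Cre06.g251750 moved in opposite directions and passed the test both times. In mt+ it was higher, with 27.7 and 30.9 CPM in dnmt1 mt+ against 15.2 and 17.6 CPM in WT mt+, and in mt- it was lower, with 13.2 and 14.0 CPM in dnmt1 mt- against 21.7 and 19.8 CPM in WT mt-. The log2 fold change was 0.83 ± 0.13 in mt+ (adjusted p = 0.000343) and -0.62 ± 0.13 in mt- (adjusted p = 0.00340), and the difference was 1.45 ± 0.19 (adjusted p = 8.52e-05). The mt- call was lost without WT mt- replicate 1 (adjusted p = 0.0575); the mt+ call and the difference were called without each library in turn.

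**Figure D4:**
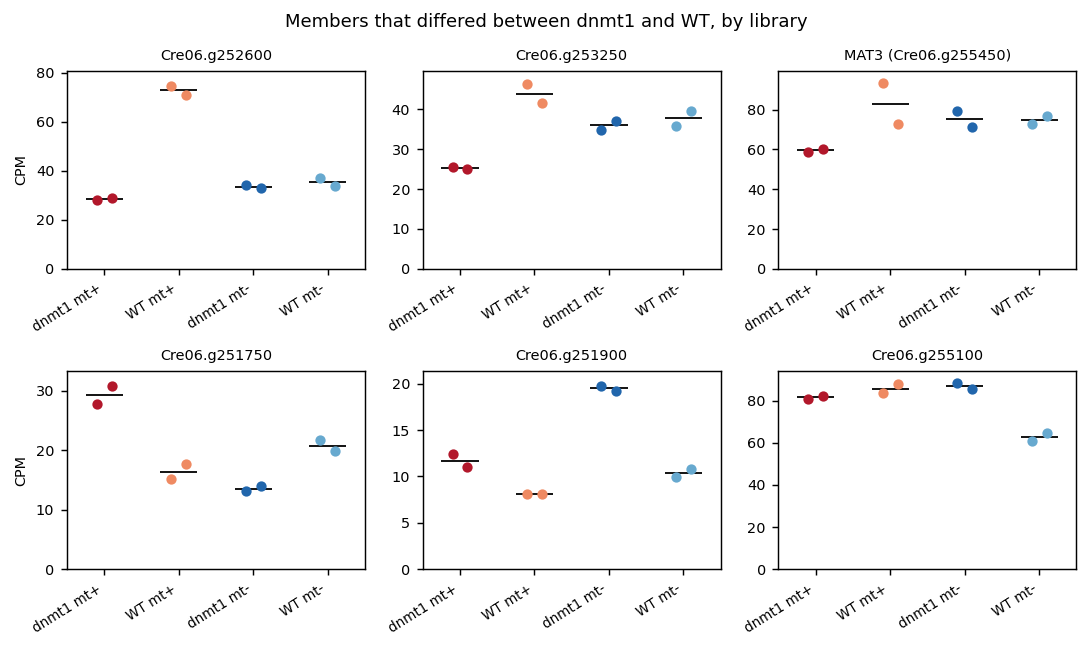
Level in CPM (linear axis from 0) of 6 members in each library, in the order dnmt1 mt+, WT mt+, dnmt1 mt-, WT mt-; points are libraries and bars are group means. Cre06.g252600, Cre06.g253250 and MAT3 are lowest in dnmt1 mt+, Cre06.g251750 is highest there, and Cre06.g255100 is lowest in WT mt-.

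Counted over the region, dnmt1 mt+ against WT mt+ gave 5 members higher and 9 lower of 70, 20.0%, against 18.1% of all genes (9.27% higher, 8.83% lower). For dnmt1 mt- against WT mt- it was 7 higher and 7 lower, 20.0%, against 23.5% of all genes (11.9% higher, 11.6% lower). These shares are near those of all genes. In each of these calls the libraries of the compared groups did not overlap, which again was not counted over all genes. The median log2 fold change was -0.07 in mt+ and 0.01 in mt-, against -0.00 and 0.01 over all genes. Among the 63 members at the filter level in both mating types, 13 (20.6%) were called in mt+ and 14 (22.2%) in mt-, against 18.6% and 24.1% of all genes that met the same condition. With a minimum of 2-fold, 2 members were lower and none higher in mt+ (2.86%, against 3.70% of all genes), and none was called in mt- (0.00%, against 3.77%); those 2 were Cre06.g252600 and Cre06.g251550, and Cre06.g251550 rested on 0 and 0 counts in dnmt1 mt+ against 4 and 6 in WT mt+.

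The counts of members and of all genes depended on single libraries and on the fit. In mt+, leaving out replicate 1 of dnmt1 mt+ gave 1 higher and 2 lower (4.11% of members, against 8.44% of all genes), and its replicate 2 gave 1 and 3 (5.56%, against 8.62%). Leaving out replicate 1 or replicate 2 of WT mt+ gave 8 and 11 each time (26.4% and 26.0%, against 25.0% and 27.0% of all genes). Leaving out replicate 1 of dnmt1 mt- gave 5 and 5 (13.7%, against 15.2%), and the 2 compared groups alone gave 1 higher and 4 lower (7.35%, against 10.1%). In mt-, leaving out replicate 1 of dnmt1 mt- gave 3 higher and 1 lower (5.48%, against 10.9%), and its replicate 2 gave 2 and 3 (6.85%, against 12.1%). Leaving out replicate 1 of WT mt- gave 3 and 0 (4.17%, against 10.3%), and its replicate 2 gave 3 and 4 (9.59%, against 11.9%). Leaving out replicate 1 or replicate 2 of WT mt+ gave 11 and 13 each time (33.3% and 32.9%, against 36.6% and 36.7%), and so did the 2 compared groups alone (36.9%, against 37.8%). With library size scaling the mt- split was 4 higher and 13 lower (24.3%, against 23.9%), in place of 7 and 7. The median log2 fold change over all genes was then -0.09, in place of 0.01, and that of the members -0.07, in place of 0.01, so the whole table moved down and not the members alone.

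Across both mating types, 1 member was called higher in both, 1 lower in both, 1 in opposite directions, 11 in mt+ and not in mt-, 11 in mt- and not in mt+, and 45 in neither. Over all genes, 2.59% were higher in both, 2.93% lower in both and 2.55% opposite. Calls in mt+ and not in mt- took 15.7% of the members, against 1532 of all 15263 genes. Those in mt- and not in mt+ took 15.7%, against 15.5%, and 64.3% were called in neither, against 66.4%. The 2 sets of log2 fold changes, which have no library in common, had a Pearson correlation of 0.03 and a Spearman correlation of 0.14 across the 70 members. Over the 69 members under 8-fold in both, which leaves out Cre06.g251550, they were 0.22 and 0.17. Taking the 4 comparisons together, 18 of the 70 were called in none, 48 in a comparison of mating types, 25 in a comparison of dnmt1 with WT, and 21 in both kinds. These are 25.7%, 68.6%, 35.7% and 30.0% of the members, against 52.6%, 35.5%, 33.6% and 21.7% of all genes. Among the 63 members at the filter level in both mating types they were 18 (28.6%), 41 (65.1%), 24 (38.1%) and 20 (31.7%), against 51.6%, 36.3%, 34.4% and 22.4% of all genes that met the same condition. The 4 called between dnmt1 and WT and not between mating types were Cre06.g251400, Cre06.g251800, Cre06.g253350 and Cre06.g255300.

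**Figure D5:**
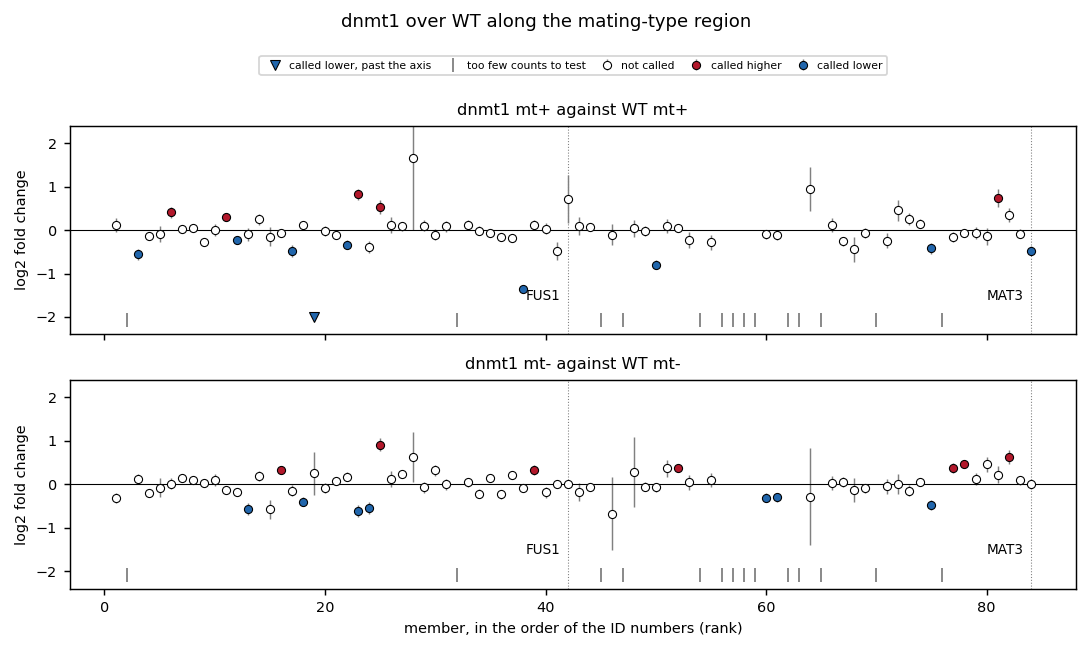
Log2 fold change of dnmt1 over WT for each member in mt+ (top) and mt- (bottom), in the order of the ID numbers; filled points are called, error bars are SE, the triangle lies past the axis and ticks at the bottom are members with too few counts to test. The called members are spread over the region, and most lie within 1 log2 unit; Cre06.g252600 is the lowest point in mt+ within the axis, and the triangle is Cre06.g251550, a fitted value for a member without counts in dnmt1 mt+.

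The difference of the dnmt1 effect between mating types, tested directly, was called for 3 members with a higher value in mt+ and 8 with a lower one, 15.7% of 70, against 13.8% of all genes (6.81% higher, 7.00% lower). Among the 63 members at the filter level in both mating types it was called for 10 (15.9%), against 14.3% of all genes that met the same condition. Beside Cre06.g251750, the members with a higher effect in mt+ were Cre06.g251500 (0.50 ± 0.15, adjusted p = 0.0346) and Cre06.g251150 (0.44 ± 0.12, adjusted p = 0.0194). Cre06.g251150 had 199.5 and 207 CPM in dnmt1 mt+ against 173 and 156 CPM in WT mt+, and 189 and 179 CPM in dnmt1 mt- against 199 and 204 CPM in WT mt-. Those with a lower effect in mt+, beside Cre06.g252600, Cre06.g253250 and MAT3, included Cre06.g250750 (-0.68 ± 0.17, adjusted p = 0.0144), Cre06.g255100 (-0.54 ± 0.12, adjusted p = 0.00597) and Cre06.g251716 (-0.51 ± 0.15, adjusted p = 0.0358). Cre06.g250750 had 21.0 and 24.1 CPM in dnmt1 mt+ against 33.4 and 32.9 CPM in WT mt+, and 27.7 and 32.6 CPM in dnmt1 mt- against 28.9 and 26.2 CPM in WT mt-. The call of Cre06.g250750 was lost without dnmt1 mt+ replicate 1, dnmt1 mt- replicate 2 or WT mt- replicate 2 (adjusted p = 0.0895 to 0.109), and that of Cre06.g255100 without replicate 1 of dnmt1 mt+, dnmt1 mt- or WT mt- (0.0553 to 0.0634). Cre06.g251150 lost it without replicate 2 of dnmt1 mt+ or dnmt1 mt- or either WT mt- library (0.0667 to 0.115). Cre06.g251500 and Cre06.g251716 lost it without each of the 6 libraries other than those of WT mt+ (0.0540 to 0.150 and 0.0554 to 0.206), and Cre06.g251716 also with library size scaling (0.114), DESeq2 (0.0733) and a mean of at least 10 CPM (0.0541). Without replicate 1 of dnmt1 mt+ the counts were 2 higher and 3 lower (6.85% of members, against 7.36% of all genes), and without its replicate 2 they were 1 and 4 (6.94%, against 7.29%). For WT mt+ the same gave 6 and 11 (23.6%, against 20.4%), or 8 and 14 (30.1%, against 28.0%), and for dnmt1 mt- 2 and 4 (8.22%, against 7.51%), or 1 and 3 (5.48%, against 7.72%). For WT mt- it gave 1 and 3 each time (5.56% and 5.48%, against 7.03% and 7.20%). Library size scaling gave 3 and 5 (11.4%, against 12.7%).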

How the data were processed

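RNA was measured by RNA-seq in 8 libraries of 4 groups (dnmt1 mt+, WT mt+, dnmt1 mt-, WT mt-; 2 each). The submitters' processing notes name featureCounts, STAR 2.7.6, Trim Galore 2.6, DESeq2 and Picard, without saying what each did; strand setting and build are not given in the sources used here, so reads of overlapping or antisense genes cannot be told apart. The authors deposited raw counts per gene, which were used throughout. The normalized signal table deposited by the authors equalled these counts divided by 1 size factor per library and was used for that check alone. Row IDs end in the name of the CC-4532 annotation, version 6.1. All 84 members matched the v5.5 RefSeq table by ID, which gives no symbols; 37 of its 121 loci between the first and last member were not analysed here. No coordinates are printed, since the versions differ.

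Genes were kept by filterByExpr on the 4 groups, scaled by TMM and tested, 2-sided, with edgeR 4.0.16's quasi-likelihood test (glmQLFit, glmQLFTest; R 4.3.3; 4 residual degrees of freedom), with Benjamini-Hochberg adjustment over all 15263 genes tested and a threshold of 0.05; "called" means past it. Fold changes are dnmt1 over WT or mt+ over mt-. The SE, log2 fold change over the root of F, holds no more than the test does and can be below counting error for low genes. CPM used TMM-scaled library sizes. A group with 0 counts was set to 3 counts in each library, a floor of 0.133 to 0.255 CPM, for a bound; ratios with few counts have exact binomial 95% intervals. Both cover counting error only: reads without molecular identifiers are not independent molecules, and 25.5% to 30.8% of counts from 2 to 19 were odd, a pattern that arises where both mates are counted. Where they are, the intervals are too narrow even for counting error.

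The members, lists and rule for named genes were chosen with earlier results of these data known. FUS1 and MAT3 were always named; in each comparison, so were the first 6 called members in each direction by fold change with a mean of at least 1 CPM and groups that did not overlap (not asked of the difference), members with counts in 1 mating type only (at least 10 in each library) and members called in opposite directions. Others were named after their values were seen. The rule also asked for the members most like FUS1 by correlation; this was not used, since the libraries fall into separate mating-type clusters. The lists beside the region were the next 84 rows on each side in ID order (33 exist below it). Alternatives were DESeq2 1.42.0, its size factors (RLE), library size scaling, no filter, a mean of at least 10 CPM, the 2 compared groups alone, counts halved, a 2-fold minimum, a block for the replicate number, and each library left out in turn; the single library of that group is then taken to vary as the other groups do. The edgeR steps were tested on simulated data. Figures used Python 3.11.15 and matplotlib 3.10.9.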

Additional observations from a re-analysis of the deposited data

Results flagged for a closer look

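For 9 of the members named above, the dnmt1 effect in mt+ differed from that in mt- by the test of the difference itself, which uses all 4 groups of 2 libraries. On the log2 scale, mt+ effect minus mt- effect, the difference was 1.45 ± 0.19 for Cre06.g251750, 0.50 ± 0.15 for Cre06.g251500 and 0.44 ± 0.12 for Cre06.g251150, and -1.26 ± 0.14 for Cre06.g252600, -0.73 ± 0.15 for Cre06.g253250, -0.68 ± 0.17 for Cre06.g250750, -0.54 ± 0.12 for Cre06.g255100, -0.51 ± 0.15 for Cre06.g251716 and -0.48 ± 0.15 for MAT3 (Cre06.g255450). The effects behind the largest of these were 0.83 ± 0.13 in mt+ and -0.62 ± 0.13 in mt- for Cre06.g251750, and -1.35 ± 0.10 in mt+ and -0.09 ± 0.10 in mt- for Cre06.g252600. The calls of Cre06.g251750, Cre06.g252600 and Cre06.g253250 held without each of the 8 libraries in turn, and each of the other 6 was lost without at least 3 of them, with an adjusted p of 0.0540 to 0.243. The transcript of the DNMT1 locus also moved in opposite directions in mt+ and mt-, as given above, and its part in these differences was not tested.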

How the results depend on the processing

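Under the alternatives other than the 2-fold minimum, none of the 1731 recomputed values of members called in a comparison had the opposite sign. This was largely fixed in advance and shows little. In the comparisons of 2 groups the libraries of every call did not overlap, so these alternatives could hardly reverse a sign. Another 34 had no value (DESeq2, counts halved, a mean of at least 10 CPM or the 2 groups alone), FUS1 between mating types with the first 3 among them. With library size scaling, dnmt1 mt- against WT mt- gave 4 higher and 13 lower members (23.5% of calls higher, against 50.0%), and the difference of the dnmt1 effects gave 5 lower; it gave 5 lower with DESeq2 too. With a mean of at least 10 CPM there were 5 lower in dnmt1 mt+ against WT mt+, 15 lower in mt+ against mt- in dnmt1, and 5 lower for the difference. Called in either direction were then 15.8%, 47.4% and 14.0% of the tested members, against 24.9%, 27.6% and 17.9% of all genes. With the 2 compared groups alone, dnmt1 mt+ against WT mt+ gave 1 higher and 4 lower, and dnmt1 mt- against WT mt- gave 11 higher and 13 lower. A 2-fold minimum left 0 higher and 2 lower in dnmt1 mt+, 0 and 0 in dnmt1 mt-, 7 and 3 between mating types in dnmt1, 8 and 3 in WT, and 1 and 2 for the difference. For the difference this was 4.29% of members, against 5.44% of all genes, and the other shares are given above. What changed these counts was not tested. The 10 CPM filter leaves fewer genes to test and the 2-fold minimum is a stricter call, and their part was not separated.

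Leaving out each library in turn gave 1 to 8 higher and 2 to 11 lower in dnmt1 mt+ against WT mt+, 2 to 11 higher and 0 to 13 lower in dnmt1 mt- against WT mt-, 10 to 21 higher and 11 to 30 lower in mt+ against mt- in dnmt1, 11 to 20 higher and 8 to 20 lower in WT, and 1 to 8 higher and 3 to 14 lower for the difference. The calls over all genes moved too, as given above for single libraries, so these ranges are not particular to the members. Over the named members, 989 values were recomputed with alternatives other than the 2-fold minimum. Of these, 876 kept their side of the threshold, 112 lost the call (92 of them without a library) and 1 gained it. No value called in the main fit changed direction. For values not called in the main fit, a change of direction was not counted.

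Replicate numbers are shared between groups, but no label says what they share, and the correlation of replicate differences ran from -0.05 to 0.15 over the 6 pairs of groups, so the numbers were not read as pairs. With the replicate block the counts were 5 higher and 10 lower in dnmt1 mt+, 7 and 7 in dnmt1 mt-, 16 and 25 between mating types in dnmt1, 15 and 16 in WT, and 3 and 10 for the difference, and no named member lost its call. In the same order these were 21.4%, 20.0%, 58.6%, 44.3% and 18.6% of members, against 19.8%, 25.5%, 23.7%, 23.6% and 15.5% of all genes. With 2 libraries per group and 3 counts as the floor, members such as Cre06.g252871 and Cre06.g253000 could not be tested at this depth.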

Other observations

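Under the choice of rows by ID number, no member had counts in mt- libraries only. A few low ones, picked out after their values were seen, leaned that way. Cre06.g252050 had 4 and 0 counts in dnmt1 mt+ against 14 and 26 in dnmt1 mt-, and 0 and 1 in WT mt+ against 20 and 12 in WT mt-. The ratio of mt+ to mt- was 0.0962 in dnmt1 (95% interval 0.0250 to 0.266, counting error alone) and 0.0407 in WT (0.000999 to 0.243). Cre06.g251550 had 0 and 0 counts in dnmt1 mt+ against 19 and 18 in dnmt1 mt-, at least 6.39-fold lower, and 4 and 6 in WT mt+ against 17 and 20 in WT mt-, a ratio of 0.352 (0.156 to 0.721).

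The rows next below the region leaned to mt+ in the comparison of mating types. Of 29 tested, 11 were higher and 2 lower in mt+ in dnmt1, with a median log2 fold change of 0.26, and 8 were higher and 3 lower in WT, with a median of 0.14. Within the region the median was -0.13 in dnmt1 and -0.03 in WT. The difference between the lists was not tested.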
